A study of Mus musculus with 24 samples.

Results

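Prg2, Prg3, Epx, Mcpt8, Prss34, Cpa3, Fcer1a, Ms4a2 and Gata2 were chosen by name as genes of eosinophils, basophils and mast cells. All 9 were present among the 24421 genes of the count table, and all 9 passed the filter on low counts that left 12742 genes for testing. Their levels are described in RNA-seq libraries of bone marrow mononuclear cells from mice that carry Shp2 E76K, an activating form of the phosphatase Shp2 that is used to model juvenile myelomonocytic leukemia. One group had been given ACP196, an inhibitor of the kinase BTK. The next had been given ACP319, an inhibitor of the p110δ isoform of PI3K, and the combination group had been given both compounds. Controls had been given vehicle and carried Shp2 E76K as well, and every treatment lasted 3 weeks. Each of the 4 groups had 3 specimens: replicates 4 to 6 received the BTK inhibitor, replicates 7 to 9 the PI3K inhibitor, replicates 10 to 12 the combination and replicates 1 to 3 vehicle. The 24 deposited samples carry 12 specimen numbers, and the table has 1 count column for each number. The labels do not say that a number stands for 1 mouse, so the p-values reflect only how far these specimens spread. Strain, age, sex, dose and what drives the Shp2 allele are not given in the labels.

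Eosinophils, basophils and mast cells are granule-bearing cells that arise from marrow progenitors in which GATA factors are active, and they carry out allergic and anti-parasite responses. Eosinophil granules hold cationic proteins such as major basic protein and eosinophil peroxidase, whereas basophils and mast cells hold serine proteases, carboxypeptidase and histamine. Basophils and mast cells are triggered when antigen crosslinks IgE on the high-affinity receptor FcεRI, whose signal passes through Lyn and Syk to BTK and to PI3K, the targets of the inhibitors used here.

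By role, Prg2 encodes major basic protein, Prg3 its homologue and Epx eosinophil peroxidase. Mcpt8 and Prss34 encode serine proteases that mouse basophils express strongly, and Cpa3 encodes a carboxypeptidase of mast cells and basophils. Fcer1a and Ms4a2 encode the α and β chains of the IgE receptor, and Gata2 encodes a transcription factor of the progenitors and of both IgE-bearing cell types. On mm10, Prg2 (chr2:84980461-84983632) and Prg3 (chr2:84988215-84993886) lay side by side on the plus strand with 4582 bases between them. Epx (chr11:87863998-87875536), Mcpt8 (chr14:56082164-56085197), Cpa3 (chr3:20215616-20242181), Fcer1a (chr1:173221271-173227229) and Ms4a2 (chr19:11615521-11623719) lay on the minus strand. Prss34 (chr17:25298394-25300161) and Gata2 (chr6:88198664-88207032) lay on the plus strand. No exon of another annotated gene overlapped theirs, so the unstranded libraries left no antisense partner to confuse with them. Of stretches of 50 transcript bases, none was shared with another gene except 63 of the 3003 of Ms4a2, which occur in Ms4a4b too.

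The 250 bases before the start are shown for 4 genes, because within a role the CPM of Prg3 and Epx, and likewise of Mcpt8 and Cpa3, had different orders across the libraries. The genes of each pair also differ in length. Relative to genes of like length (defined below), the log2 difference between Mcpt8 and Cpa3 spanned 1.94 over the 12 libraries, against 2.83 for the ratio of counts. Without BTK inhibitor replicate 5 it spanned 1.25, against 1.74 for the ratio. For Prg3 and Epx the relative difference spanned 3.56 over the 12 libraries and 1.54 without replicate 5. Pearson r of log2 CPM over the 12 libraries was -0.17 for Prg3 and Epx and 0.08 for Mcpt8 and Cpa3. Taken relative to genes of like length and without replicate 5, r was 0.83 and 0.69, so the pairs then varied together. The sequences are from RefSeq on GRCm38.p6, the mm10 build, each on the strand of its gene, with the letters GATA on either strand in capitals (TATC where the match is on the other strand). They cover chr2:84987965-84988214 for Prg3, chr11:87875537-87875786 for Epx, chr14:56085198-56085447 for Mcpt8 and chr3:20242182-20242431 for Cpa3.
Prg3: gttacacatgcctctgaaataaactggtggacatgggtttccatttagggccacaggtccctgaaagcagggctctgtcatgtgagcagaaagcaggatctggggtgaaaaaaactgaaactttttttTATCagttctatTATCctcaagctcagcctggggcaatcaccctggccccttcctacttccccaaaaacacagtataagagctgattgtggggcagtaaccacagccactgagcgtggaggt
Epx: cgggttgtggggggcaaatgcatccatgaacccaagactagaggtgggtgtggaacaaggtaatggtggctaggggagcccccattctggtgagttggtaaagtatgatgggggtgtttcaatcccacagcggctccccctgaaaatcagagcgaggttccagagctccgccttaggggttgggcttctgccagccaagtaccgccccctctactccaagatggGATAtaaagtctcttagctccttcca
Mcpt8: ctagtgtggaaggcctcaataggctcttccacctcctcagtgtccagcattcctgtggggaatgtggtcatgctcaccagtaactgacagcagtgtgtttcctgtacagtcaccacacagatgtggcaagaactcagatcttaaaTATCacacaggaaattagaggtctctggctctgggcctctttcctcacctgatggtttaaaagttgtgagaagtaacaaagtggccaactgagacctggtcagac
Cpa3: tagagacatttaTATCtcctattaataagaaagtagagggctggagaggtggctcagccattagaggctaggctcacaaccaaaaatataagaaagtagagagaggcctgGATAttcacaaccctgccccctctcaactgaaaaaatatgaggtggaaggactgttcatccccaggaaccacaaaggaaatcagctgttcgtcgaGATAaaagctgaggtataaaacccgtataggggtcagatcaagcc
GATA is the core of the sequence that GATA factors bind. The table held such a window for 8 of the 9 genes (Gata2 has 2 windows), and 7 of these 9 windows held GATA on either strand, against 53.6% of all 32851 windows of the same length. The longer AGATAA was in 4 of the 9 windows and in 9.99% of all, and TGATAA was in 1 of the 9 and in 7.94% of all. In Prg3 the matches began 122 and 110 bases before the start, the first of them within TGATAA. Epx had 1 match, 26 bases before the start, and Mcpt8 had 1 at 105 bases. Cpa3 had 3 matches, of which the one at 45 bases was within AGATAA. The letters were in neither window of Gata2.

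Total counts lay between 8993950 and 22154833 per library. BTK inhibitor replicate 5 stood apart, with the lowest total. Rn45s, the precursor of ribosomal RNA, took 15.4% of its counts and 0.203% to 0.773% of those of the other 11. BTK inhibitor replicate 6 carries day 30 in its title where the others carry day 24, and the labels do not say what was done on that day. Libraries also differed by gene length, measured as the slope of a gene's deviation from its mean log2 level on log2 length. This slope was -0.15 ± 0.29 log2 per doubling of length with the BTK inhibitor (SD, n = 3), -0.28 ± 0.16 with the PI3K inhibitor, 0.21 ± 0.10 with the combination and 0.22 ± 0.16 with vehicle. The slope was below 0 in 5 of the 6 single-inhibitor libraries, in which short transcripts took a larger share of the counts, and each of the 9 genes is set beside the 200 tested genes nearest to it in length. In bulk RNA, fewer cells of a type and less RNA per cell cannot be told apart. Among markers of other cells, 6 genes of neutrophil secondary granules together held 27635 to 95833 CPM (counts scaled to the size of the library) in the 12 libraries. Sums of 7 monocyte genes were 1458 to 2537 CPM, and those of 7 T and NK cell genes 57.3 to 340 CPM. Whether the cells matched their label as mononuclear cells was not tested. The 3 eosinophil granule genes together held 1342 to 7369 CPM.

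Taking length into account, Prg2 was by far the highest of the 9 genes. Its level over all 12 libraries averaged 3707 CPM per kilobase, which was rank 18 of the 12742 tested genes. Its lowest library, at 1405 CPM per kilobase in vehicle replicate 3, was above the highest of any other member. Mcpt8 followed at 632 CPM per kilobase and Prss34 at 475, and these neighbours overlapped across libraries (346 to 1139 and 268 to 801). Prg3 at 124 and Epx at 109 CPM per kilobase were not separated either, with ranges of 43.7 to 266 and 19.1 to 270.2. Cpa3 averaged 52.5 and Fcer1a 25.4 CPM per kilobase. Gata2 at 15.2 and Ms4a2 at 13.7 were the lowest pair and overlapped. Together the 9 genes took 0.461 ± 0.083% of the counts with the BTK inhibitor (SD, n = 3), 0.622 ± 0.183% with the PI3K inhibitor, 0.371 ± 0.103% with the combination and 0.383 ± 0.135% with vehicle.

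The proteases known from mature mast cells, other than Cpa3, were close to absent. Of 16 further effector genes of basophils and mast cells, 8 were too low to test. Among them the mast cell proteases Mcpt1, Mcpt2, Mcpt4, Cma1 and Tpsb2 had at most 3, 7, 1, 5 and 1 counts in any library. Other genes that mast cells share with further marrow cells were well detected, with up to 8583 counts for Hdc, the histamine-forming enzyme, 21191 for Srgn, a granule proteoglycan, and 2705 for Kit, the stem cell factor receptor. Tpsab1 and Tpsg1, which encode tryptases, and Mrgprb2, a receptor of connective tissue mast cells, had no count in any library.

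**Figure D1:**
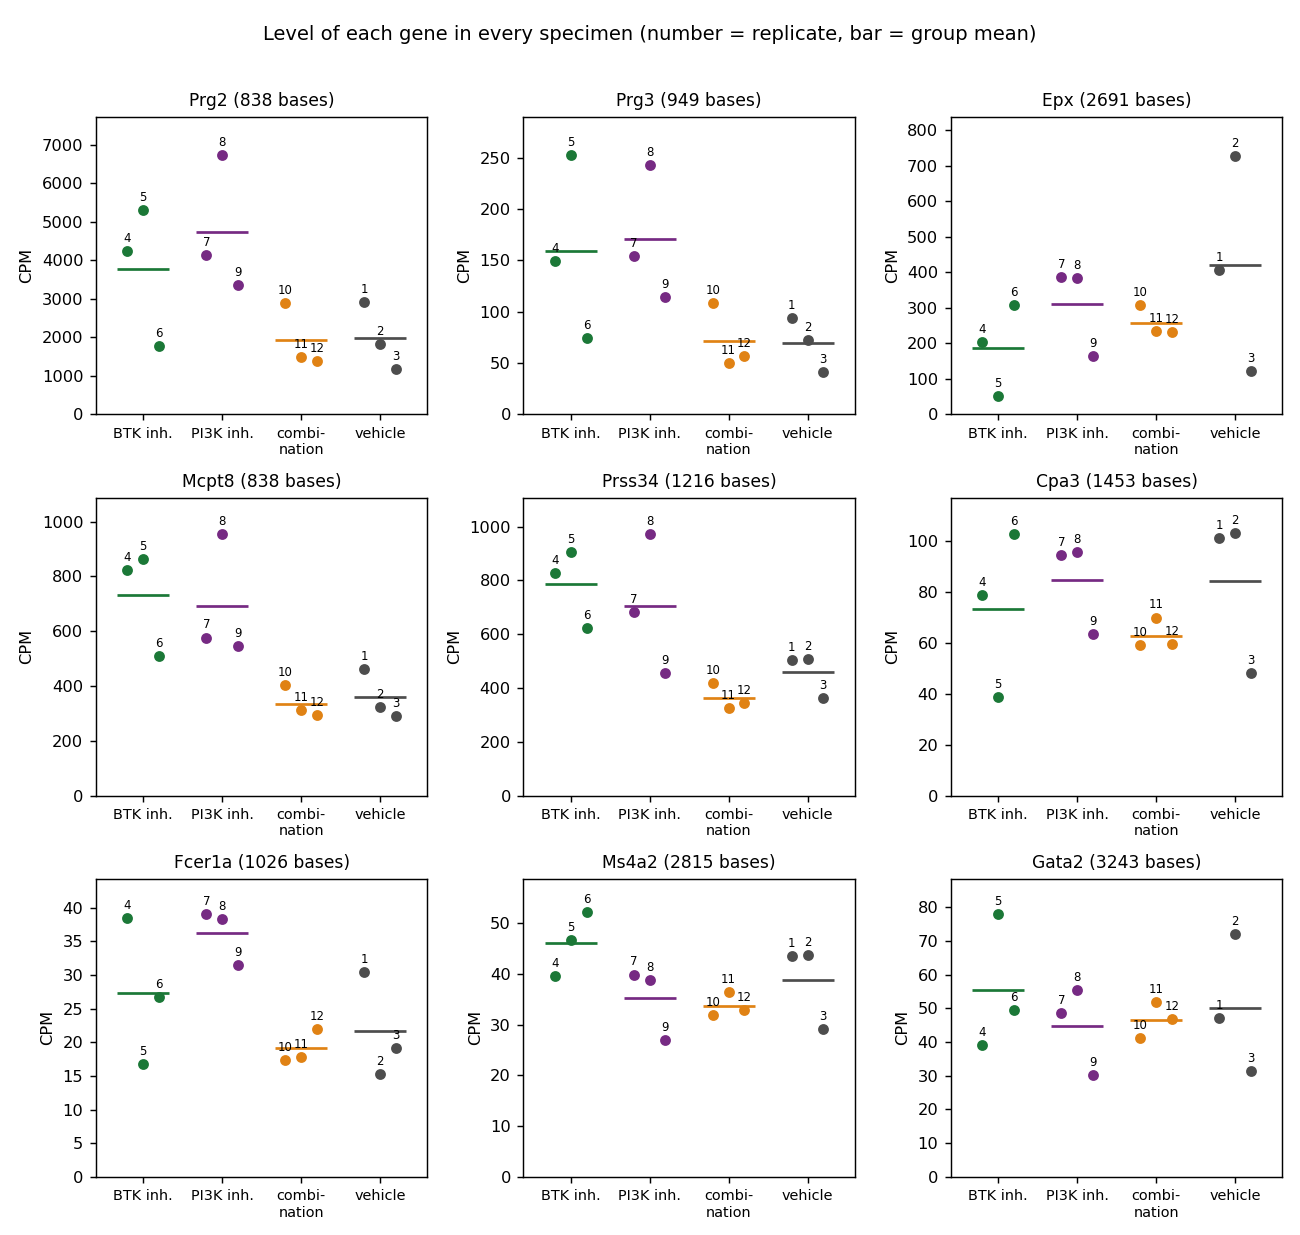
Level of each of the 9 genes in CPM (vertical axes from 0, one scale per gene) in the 3 specimens of each group, with the replicate number above each point and the group mean as a bar. The 3 PI3K inhibitor specimens of Prg2 lie between 3367 and 6743 CPM, all above the vehicle specimens, while Epx is lowest in BTK inhibitor replicate 5 at 51.5 CPM and highest in vehicle replicate 2 at 727 CPM.

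The first question was whether the eosinophil granule genes changed with each inhibitor. Prg2 was at 4251, 5299.75 and 1775 CPM in BTK inhibitor replicates 4 to 6, at 4131, 6743 and 3367 CPM in PI3K inhibitor replicates 7 to 9, at 2899, 1495 and 1386 CPM in combination replicates 10 to 12, and at 2926, 1825 and 1178 CPM in vehicle replicates 1 to 3. All 3 PI3K inhibitor specimens lay above all 3 vehicle specimens, BTK inhibitor replicate 6 fell inside the vehicle range, and the combination overlapped vehicle. The log2 difference of Prg2 between the PI3K inhibitor and vehicle was 1.26 ± 0.48 (SE), a 2.40-fold higher level, with an adjusted p = 0.0853 in the Benjamini-Hochberg-adjusted quasi-likelihood test of edgeR. It was 0.93 ± 0.48 between the BTK inhibitor and vehicle (adjusted p = 0.238 by the same edgeR test) and -0.04 ± 0.47 between the combination and vehicle, so no pairwise difference of Prg2 passed.

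Prg3 followed Prg2 closely. It was at 149, 253 and 74.7 CPM with the BTK inhibitor, at 154, 243 and 114 CPM with the PI3K inhibitor, at 108, 50.6 and 56.8 CPM with the combination, and at 93.7, 72.9 and 41.4 CPM with vehicle, in the same order of replicates. As with Prg2, the PI3K inhibitor and vehicle specimens did not overlap and the other groups did overlap vehicle. Its log2 difference was 1.30 ± 0.47 between the PI3K inhibitor and vehicle (the Benjamini-Hochberg-adjusted quasi-likelihood test of edgeR, adjusted p = 0.0751) and 1.19 ± 0.47 between the BTK inhibitor and vehicle (adjusted p = 0.159). Within a library the ratio of Prg2 to Prg3 counts stayed between 21.0 and 31.2, a span of 1.49-fold, although Prg2 itself spanned 5.73-fold.

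Epx, the third and longest of the granule genes, had a different order of CPM over the libraries. It was at 205, 51.5 and 307 CPM with the BTK inhibitor, at 387, 383 and 165 CPM with the PI3K inhibitor, at 307, 235 and 233 CPM with the combination, and at 407, 727 and 123 CPM with vehicle. Every treated group overlapped vehicle, whose own 3 specimens held both a very high and a low value. The log2 difference from vehicle was -1.16 ± 0.63 with the BTK inhibitor, -0.43 ± 0.62 with the PI3K inhibitor and -0.70 ± 0.62 under both compounds. Without BTK inhibitor replicate 5 the first of these was -0.70, and without vehicle replicate 2 the second was 0.23. The ratio of Prg2 to Epx counts was highest in BTK inhibitor replicate 5, at 103, and lowest in vehicle replicate 2, at 2.51, a span of 41-fold, or 8.27-fold without replicate 5. Relative to genes of like length the difference between Prg2 and Epx spanned less, 3.23 on the log2 scale against 5.36 for the ratio of counts, and without replicate 5 it spanned 1.71 against 3.05. Transcripts of Epx are 2691 bases long in the table, against 838 for Prg2 and 949 for Prg3.

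**Figure D2:**
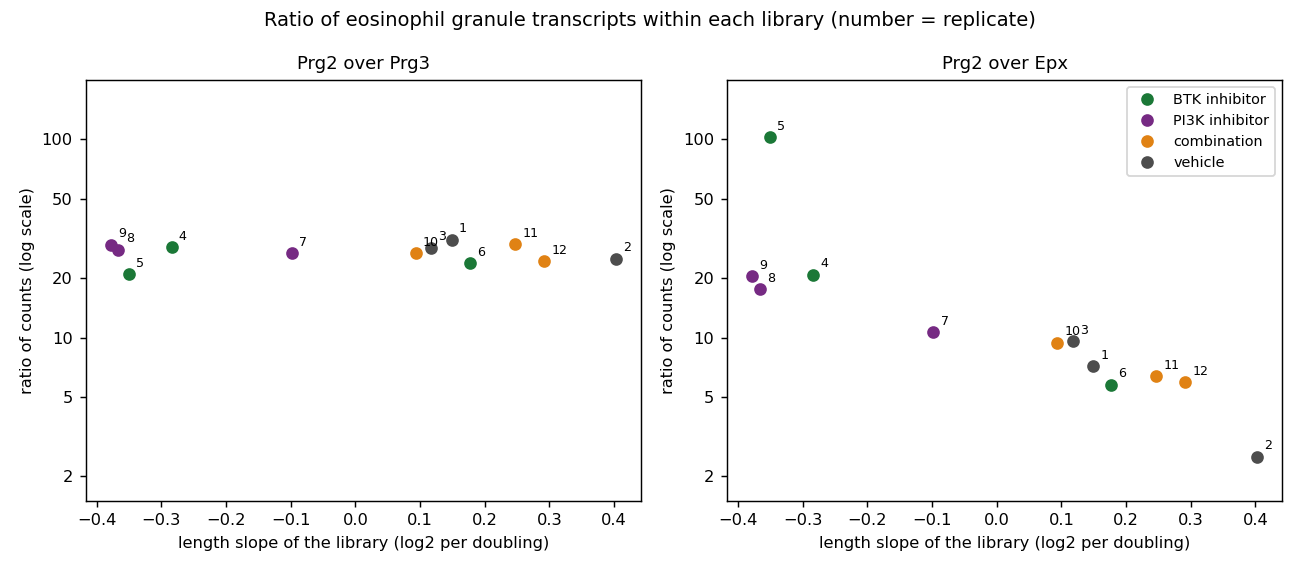
Ratio of counts within each library (log axis) for Prg2 over Prg3, left, and Prg2 over Epx, right, against the length slope of the library (log2 per doubling of length); points are libraries with their replicate number, coloured by group. The ratio to Prg3 stays between 21.0 and 31.2 in all 12 libraries, whereas the ratio to Epx lies between 10.7 and 103 in the 5 libraries of negative slope and between 2.51 and 9.57 in the 7 of positive slope.

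Among the proteases, Mcpt8 was at 823, 863 and 510.3 CPM in BTK inhibitor replicates 4 to 6, at 577, 954 and 546 CPM in PI3K inhibitor replicates 7 to 9, at 402, 312 and 293 CPM in combination replicates 10 to 12, and at 463, 323 and 289.5 CPM in vehicle replicates 1 to 3. Both single-inhibitor groups lay wholly above vehicle and wholly above the combination, and the combination overlapped vehicle. The log2 difference of Mcpt8 from vehicle was 1.03 ± 0.32 with the BTK inhibitor and 0.95 ± 0.32 with the PI3K inhibitor, with adjusted p = 0.136 and adjusted p = 0.0626 in the Benjamini-Hochberg-adjusted quasi-likelihood test of edgeR. With the combination it was -0.10 ± 0.31.

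Prss34 was at 827, 906 and 624 CPM with the BTK inhibitor, at 681, 974 and 458 CPM with the PI3K inhibitor, at 419.8, 326 and 343 CPM with the combination, and at 505, 509.5 and 364 CPM with vehicle. The BTK inhibitor specimens were all above vehicle, PI3K inhibitor replicate 9 fell among the vehicle values, and both single-inhibitor groups were wholly above the combination. Its log2 difference from vehicle was 0.77 ± 0.30 with the BTK inhibitor, 0.62 ± 0.30 with the PI3K inhibitor and -0.34 ± 0.30 under both compounds. Counts of Mcpt8 and Prss34 stayed within a ratio of 0.635 to 1.19 in every library.

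Cpa3, the third protease gene, was at 78.8, 38.8 and 103 CPM with the BTK inhibitor, at 94.5, 95.9 and 63.7 CPM with the PI3K inhibitor, at 59.2, 70.0 and 59.4 CPM with the combination, and at 101, 103 and 48.1 CPM with vehicle. All groups overlapped vehicle, and like Epx it was lowest in BTK inhibitor replicate 5 and highest in vehicle replicate 2. The log2 difference from vehicle was -0.19 ± 0.36 with the BTK inhibitor, 0.01 ± 0.36 with the PI3K inhibitor and -0.42 ± 0.36 under both compounds. Leaving out BTK inhibitor replicate 5 turned the first of these to 0.11.

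Both IgE receptor chains were lower per kilobase than the proteases. Fcer1a was at 38.5, 16.8 and 26.7 CPM with the BTK inhibitor, at 39.1, 38.3 and 31.5 CPM with the PI3K inhibitor, at 17.4, 17.8 and 22.0 CPM with the combination, and at 30.4, 15.3 and 19.2 CPM with vehicle. The PI3K inhibitor specimens lay above those of vehicle and of the combination, and the BTK inhibitor specimens overlapped both. The log2 difference of Fcer1a between the PI3K inhibitor and vehicle was 0.75 ± 0.32, with an adjusted p = 0.116 in the Benjamini-Hochberg-adjusted quasi-likelihood test of edgeR. In BTK inhibitor replicate 5 this gene rested on 83 counts.

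Ms4a2, the β chain, varied least, with 1.93-fold between its lowest and highest library. It was at 39.7, 46.6 and 52.2 CPM with the BTK inhibitor, at 39.9, 38.8 and 27.0 CPM with the PI3K inhibitor, at 31.9, 36.5 and 32.9 CPM with the combination, and at 43.6, 43.9 and 29.2 CPM with vehicle. Only the combination and the BTK inhibitor did not overlap, with a log2 difference of -0.45 ± 0.24. Gata2 was at 39.1, 77.9 and 49.6 CPM with the BTK inhibitor, at 48.6, 55.4 and 30.2 CPM with the PI3K inhibitor, at 41.2, 51.9 and 46.8 CPM with the combination, and at 47.2, 72.0 and 31.4 CPM with vehicle. Its groups overlapped in all 6 pairings. The log2 difference of Gata2 from vehicle was 0.14 ± 0.34 with the BTK inhibitor, -0.17 ± 0.34 with the PI3K inhibitor and -0.11 ± 0.34 under both compounds.

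Counted over the set, no member passed an adjusted p of 0.05 in any of the 6 pairwise comparisons. Between the BTK inhibitor and vehicle 0 of the 9 were called by the Benjamini-Hochberg-adjusted quasi-likelihood test of edgeR, beside 0% of all tested genes. At an unadjusted p under 0.05 there were 3 members (Prg3, Mcpt8 and Prss34), beside 24.7% of all genes. DESeq2 called 1 member of 1085 genes and limma voom called 2 of 2979. The specimens of 2 members, Mcpt8 and Prss34, lay wholly above vehicle, beside 18.5% of all genes without overlap and 8.92% wholly higher. When BTK inhibitor replicate 6 was left out, so that all libraries shared a title day, 4 members were called higher (Prg2 1.27, Prg3 1.53, Mcpt8 1.23 and Prss34 0.91 on the log2 scale), among 3809 genes called in all. In that fit of 11 libraries the BTK inhibitor arm was replicates 4 and 5, both with a negative length slope, and the vehicle libraries had positive slopes. Replicate 6 is a lone specimen of its day, so the day and the specimen cannot be told apart.

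Between the PI3K inhibitor and vehicle 0 of the 9 were called, beside 10.7% of all tested genes, and 4 had an unadjusted p under 0.05, beside 35.7%. Those 4, Prg2, Prg3, Mcpt8 and Fcer1a, were also the ones whose specimens lay wholly above vehicle, beside 51.2% of all genes without overlap and 24.9% wholly higher. DESeq2 and limma voom each called Prg2, Prg3 and Mcpt8, among 3221 and 4771 genes in all. When BTK inhibitor replicate 5, a library of neither group, was left out, 4 members were called higher, among 4375 genes in all. They were Prg2, Prg3, Mcpt8 and Fcer1a, and none of them was called there with a gene length offset. Between the combination and vehicle 0 members were called and 0 had an unadjusted p under 0.05, beside 0% and 4.91% of all genes. DESeq2 called 0 members of 22 genes there and limma voom 0 of 1241. All 9 overlapped, beside 18.8% of genes that did not, and the log2 differences ran from -0.70 for Epx to 0.05 for Prg3.

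Set against either single inhibitor, the combination gave no call among the 9 genes. Against the PI3K inhibitor the specimens of 5 members were all lower, beside 51.1% of genes without overlap in either direction and 24.6% lower. They were Prg2 (log2 difference -1.30 ± 0.48), Prg3 (-1.24 ± 0.47), Mcpt8 (-1.04 ± 0.32), Prss34 (-0.96 ± 0.31) and Fcer1a (-0.93 ± 0.32). Genes of like length had medians of -0.96 for Prg2 and Mcpt8, -0.87 for Prg3, -0.77 for Prss34 and -0.88 for Fcer1a, and with a gene length offset the values were -0.50 for Prg2, -0.50 for Prg3, -0.21 for Mcpt8, -0.34 for Prss34 and -0.20 for Fcer1a. None of the 9 was called by edgeR's quasi-likelihood test, beside 0% of all genes, and the same 5 had an unadjusted p under 0.05, beside 28.7%. DESeq2 called 3 of them (Mcpt8, Prss34 and Fcer1a) and limma voom all 5, among 1226 and 5337 genes. When BTK inhibitor replicate 5 was left out, 4 members were called, among 2499 genes in all. Against the BTK inhibitor 3 members were all lower, Mcpt8 (-1.13 ± 0.32), Prss34 (-1.11 ± 0.31) and Ms4a2, beside 14.8% of genes without overlap and 6.73% wholly lower. The like-length medians there were -0.83, -0.54 and 0.07 in the order Mcpt8, Prss34 and Ms4a2, and the offset values were -0.43, -0.63 and -0.63. Again 0 were called, beside 0% of all genes, and 3 (Prg3, Mcpt8 and Prss34) had an unadjusted p under 0.05, beside 20.2%. DESeq2 called 2 members there, Mcpt8 and Prss34, and limma voom called 5, among 577 and 4978 genes. When BTK inhibitor replicate 6 was left out, 4 members were called, among 3470 genes in all. The single inhibitors set against each other, PI3K over BTK, gave 0 calls and 0 unadjusted passes, all 9 genes overlapping, beside 0%, 6.21% and 6.22% of all genes. DESeq2 and limma voom called 0 members there. The widest interval in that pair was for Epx, whose difference of 0.73 had a 95% interval from -0.61 to 2.07, so differences of that size between the compounds are not excluded.

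The interaction of the inhibitors is the combination minus the BTK inhibitor minus the PI3K inhibitor plus vehicle. It is negative where the combination lies below the level that both single differences would add up to. Here 4 of the 9 genes were below 0 and past the threshold, Prg2 (-2.23 ± 0.68), Prg3 (-2.44 ± 0.66), Mcpt8 (-2.07 ± 0.45) and Prss34 (-1.73 ± 0.43). Their adjusted p were 0.0299, 0.0221, 0.0202 and 0.0202 in the Benjamini-Hochberg-adjusted quasi-likelihood test of edgeR. The background was high, with 27.6% of all tested genes called, 12% higher and 15.6% lower, and 43.1% had an unadjusted p under 0.05 as did 5 of the 9 members. Fcer1a had -1.27 ± 0.45 (adjusted p = 0.0514), and the other members lay between -0.31 and 0.89. For each of the 4 genes both single-inhibitor group means were above those of the combination and of vehicle, although BTK inhibitor replicate 6 lay inside the vehicle range for Prg2 and Prg3, and PI3K inhibitor replicate 9 did so for Prss34. DESeq2 and limma voom called the same 4 genes and Fcer1a, limma voom among 6726 genes in all. The DESeq2 total is not reported here, so these calls are no result about the members. Without any one of PI3K inhibitor replicates 8 and 9, combination replicates 11 and 12 and vehicle replicate 2, no member was called, with adjusted p up to 0.0825 for the 4 genes by the Benjamini-Hochberg-adjusted quasi-likelihood test of edgeR. The values themselves stayed between -2.86 and -1.42 when any 1 specimen was left out.

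Genes of like length had interactions of the same sign. Around 838 bases, the length of both Prg2 and Mcpt8, the 200 nearest genes had a median interaction of -1.72, and 55% of them were called. Around Prg3 the median was -1.72 with 60% called, and around Prss34, at 1216 bases, it was -1.36 with 51% called. Fcer1a and Cpa3 were less negative than their neighbours, whose medians were -1.66 with 59% called and -1.03 with 39% called. Around Epx, Ms4a2 and Gata2 the medians were 0.18, 0.03 and 0.30. With a gene length offset in each library the interactions were -0.52 for Prg2, -0.82 for Prg3, -0.43 for Mcpt8 and -0.54 for Prss34, and none was called, beside 0.00785% of all genes (adjusted p from 0.332 to 0.548 in the Benjamini-Hochberg-adjusted quasi-likelihood test of edgeR).

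Genes of like length also lay above vehicle with the single inhibitors. Between the PI3K inhibitor and vehicle the genes of like length had median log2 differences of 0.92 for Prg2 and Mcpt8, 0.95 for Prg3, 0.79 for Prss34 and 1.02 for Fcer1a. The values of the genes themselves were 1.26, 0.95, 1.30, 0.62 and 0.75, named in the order Prg2, Mcpt8, Prg3, Prss34 and Fcer1a. Every member lay inside the middle 90% of its 200 neighbours in this comparison. With the length offset Prg2 was at 0.32 ± 0.38, Prg3 at 0.41 ± 0.39, Mcpt8 at 0.00 ± 0.27, Prss34 at -0.10 ± 0.30 and Fcer1a at -0.01 ± 0.37. Between the BTK inhibitor and vehicle the offset left Prg2 at 0.02 ± 0.38, Prg3 at 0.32 ± 0.39 and Mcpt8 at 0.22 ± 0.27. Epx, whose neighbours had a median of -0.12, was below the middle 90% of them (-0.86 to 1.04) and was at -1.11 ± 0.60 with the offset. That value was not called (adjusted p = 0.3 in the Benjamini-Hochberg-adjusted quasi-likelihood test of edgeR), and with the offset but without BTK inhibitor replicate 5 it was -0.70. Cpa3 lay below the medians of its neighbours, which were 0.47 with the BTK inhibitor and 0.58 with the PI3K inhibitor, each against vehicle. It was at -0.54 ± 0.43 and -0.56 ± 0.43 with the offset, and neither value was called.

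**Figure D3:**
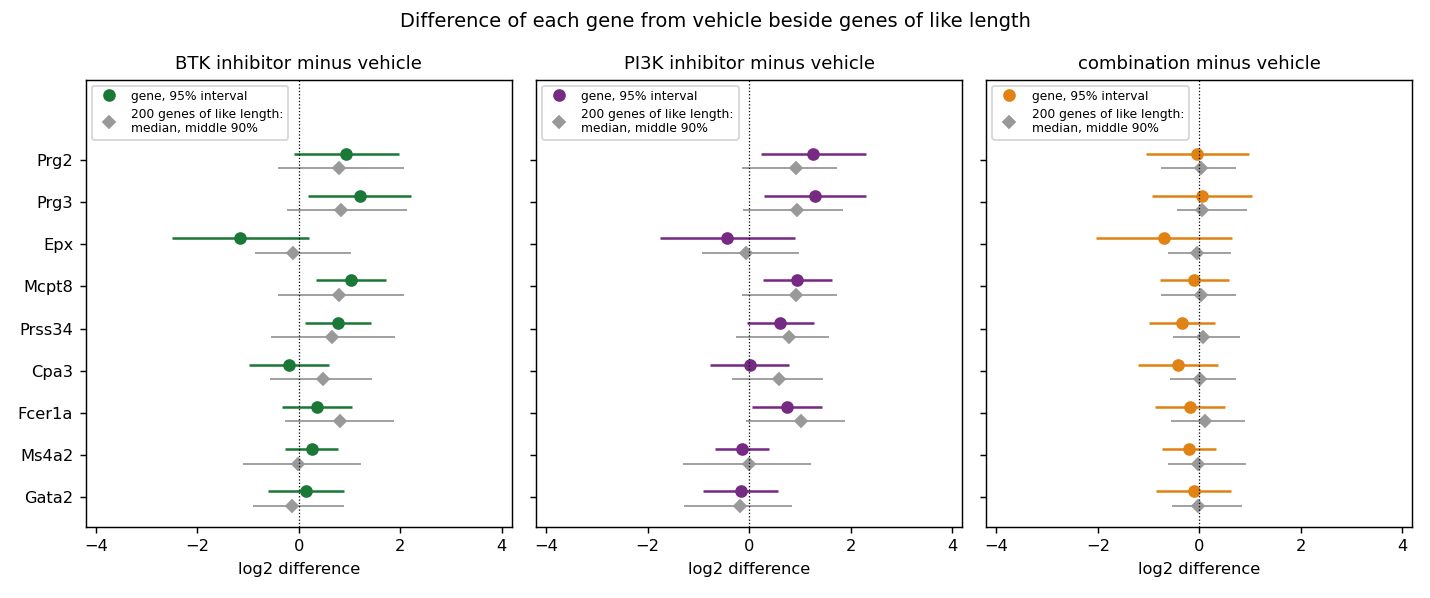
Log2 difference from vehicle (horizontal axis) of each gene with its 95% interval from edgeR, above the median and the middle 90% of the 200 tested genes nearest in length, for the BTK inhibitor, the PI3K inhibitor and the combination. For the PI3K inhibitor the neighbours of Prg2, Prg3, Mcpt8 and Fcer1a have medians from 0.92 to 1.02, beside gene values from 0.75 to 1.30.

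**Figure D4:**
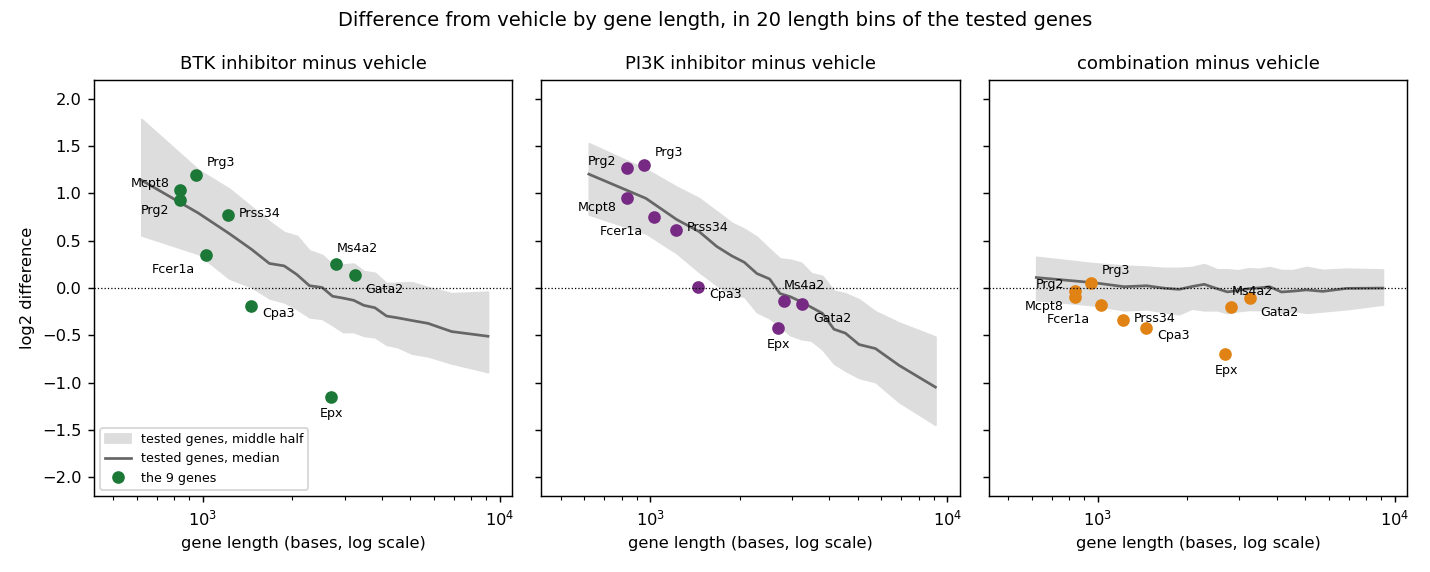
Log2 difference from vehicle against gene length in bases (log axis) for the 9 genes, over the median (line) and the interquartile range (band) of all tested genes in 20 length bins. The line falls with length in both single-inhibitor panels and is flat for the combination, and Epx lies below the band for the BTK inhibitor at -1.16.

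The libraries were also sorted by their length slope. In the 5 libraries with a slope below 0, which are BTK inhibitor replicates 4 and 5 and all 3 of the PI3K inhibitor, Prg2 was at 3367 to 6743 CPM. It was at 1178 to 2926 CPM in the 7 libraries with a slope above 0, which are BTK inhibitor replicate 6 and all combination and vehicle libraries. Prg3 was likewise at 114 to 253 CPM against 41.4 to 108 CPM, and Mcpt8 at 546 to 954 CPM against 289.5 to 510.3 CPM. These 3 were the members whose ranges did not overlap between the libraries so sorted, and the other 6 did overlap. The slope was computed from the same counts, and short transcripts took a larger share of them where it was below 0. The share of all tested genes without overlap was not counted, so the 3 are no result about these members. Since every PI3K inhibitor library had a negative slope and every combination and vehicle library a positive one, the slope and the treatment cannot be told apart in these comparisons. Within the BTK inhibitor group replicate 6, with a slope of 0.18, had the lowest Prg2, Prg3, Mcpt8 and Prss34 of the 3.

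Levels relative to genes of like length kept the order of the group means for Prg2 and Epx, with smaller gaps between the groups of Prg2. On this log2 scale Prg2 was at 0.01 ± 0.25 with the BTK inhibitor (SD, n = 3), 0.26 ± 0.58 with the PI3K inhibitor, -0.18 ± 0.40 with the combination and -0.10 ± 0.76 with vehicle. Vehicle replicate 3 was the lowest library for Prg2 at -0.97 and for Prg3 at -1.05, and vehicle replicates 1 and 2 were above 0 for both. Epx was at -0.65 ± 1.12 under the BTK inhibitor, 0.25 ± 0.69 under the PI3K inhibitor, 0.03 ± 0.25 under the combination and 0.36 ± 1.29 under vehicle, with replicate 5 at -1.91. Mcpt8 was at 0.22 ± 0.24 under the BTK inhibitor, -0.03 ± 0.46 under the PI3K inhibitor, -0.16 ± 0.06 under the combination and -0.03 ± 0.43 under vehicle.

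**Figure D5:**
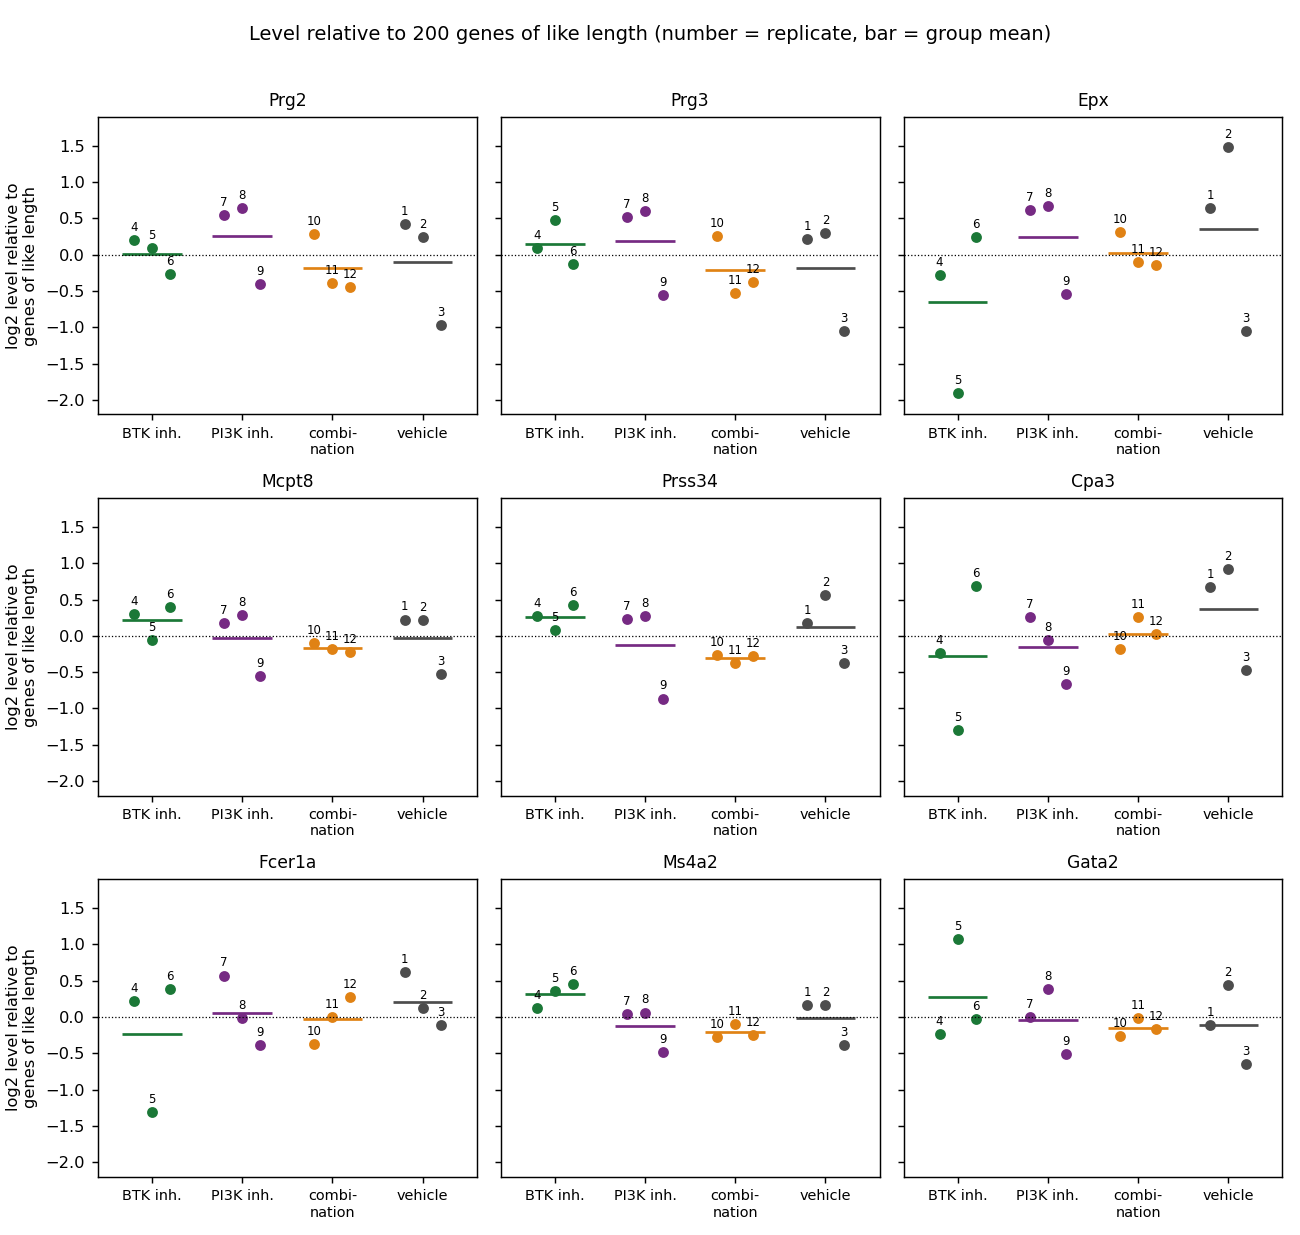
Log2 level of each gene relative to the median of the 200 tested genes nearest in length (vertical axis, 0 as a dotted line) in the 3 specimens of each group, with replicate numbers and the group mean as a bar. The groups overlap for Prg2, Prg3 and Epx, vehicle replicate 3 is low for all 3 of them, and BTK inhibitor replicate 5 is low for Epx at -1.91 and for Fcer1a at -1.31.

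Other genes of the same cells are set beside the shares of all tested genes. Between the PI3K inhibitor and vehicle 4.84% were called higher and 5.82% lower, and in the interaction 12% and 15.6%. Of 14 further eosinophil genes 11 were tested, and between the PI3K inhibitor and vehicle 1 fell and 0 rose, with a median log2 difference of 0.04 against -0.01 over all tested genes. It was Csf2rb, the β chain shared by the receptors for IL-5, IL-3 and GM-CSF, at 97.4 ± 24.5 CPM with the PI3K inhibitor and 267 ± 63.3 CPM with vehicle (SD, n = 3). Its log2 difference was -1.46 ± 0.27, with an adjusted p = 0.0388 in the Benjamini-Hochberg-adjusted quasi-likelihood test of edgeR. Genes of its length had a median of -0.50, and with the length offset it was at -0.97. In the interaction Csf2rb was higher (1.69 ± 0.38), and the ribonuclease genes Rnase12 (-2.94 ± 0.70) and Ear2 (-1.98 ± 0.56) were lower. Ear2 shares 41.5% of its stretches of 50 bases with other Ear genes, so its counts are uncertain. Il5ra, the α chain of the IL-5 receptor, was low, at 5.27 ± 0.33 CPM with the PI3K inhibitor and 5.92 ± 1.25 CPM with vehicle.

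Of the 8 tested effector genes of basophils and mast cells, 0 were called in any of the 7 comparisons without a length offset, and at most 3 had an unadjusted p under 0.05 in any one. Those with the smallest p over all comparisons were Alox5ap, a cofactor of leukotriene synthesis, at 466 ± 52.1 CPM with the combination and 849.9 ± 292 CPM with the BTK inhibitor, and Hpgds, a prostaglandin D synthase, at 2.09 ± 0.75 CPM with the BTK inhibitor and 4.6 ± 1.83 CPM with vehicle. Of 10 tested surface genes, 1 fell between the PI3K inhibitor and vehicle and 0 rose. It was Il18r1, the IL-18 receptor chain, at 13.98 ± 2.37 CPM with the PI3K inhibitor and 24.7 ± 3.09 CPM with vehicle (log2 -0.82 ± 0.24, adjusted p = 0.0469 by the Benjamini-Hochberg-adjusted quasi-likelihood test of edgeR). In the interaction Cd63, a tetraspanin of granule membranes, was lower (-3.08 ± 0.81), as was Fcer1g, the γ chain of the IgE receptor (-1.29 ± 0.45), and Il18r1 was higher (1.07 ± 0.34). These were at -0.92, 0.27 and 0.41, in the same order, with the length offset and without BTK inhibitor replicate 5.

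Of 18 IgE receptor signalling genes tested, 5 fell between the PI3K inhibitor and vehicle and 0 rose, beside 5.82% and 4.84% of all tested genes. Their median log2 difference was -0.79, against -0.01 over all tested genes. Pik3cd, which encodes the p110δ subunit that ACP319 targets, averaged 112 ± 17.4 CPM with the PI3K inhibitor and 222 ± 27.0 CPM with vehicle (log2 -0.99 ± 0.23). Gab2, an adaptor that binds PI3K, was at -1.18 ± 0.28, Inpp5d, which encodes the phosphatase SHIP1, at -1.10 ± 0.29 and Plcg2, a phospholipase downstream of BTK, at -1.33 ± 0.39 on the log2 scale. Prkcb, a protein kinase C gene named to complete the count, was at -1.12 ± 0.33. Their adjusted p lay between 0.0403 and 0.0494 in the Benjamini-Hochberg-adjusted quasi-likelihood test of edgeR. These are long transcripts of 4298 to 8829 bases whose neighbours in length had medians from -1.04 to -0.46. Btk, the target of ACP196, was at 96.4 ± 11.6 CPM with the BTK inhibitor, 105 ± 2.23 CPM with the PI3K inhibitor, 90.2 ± 3.94 CPM with the combination and 100.1 ± 10.4 CPM with vehicle. In the interaction 4 of the 18 were higher, Plcg2 (1.83), Gab2 (1.42), Inpp5d (1.42) and Pik3cd (1.13), and 1 was lower, the adaptor gene Lat2 (-1.75 ± 0.50). Over all tested genes 12% were called higher there and 15.6% lower. Lat2 was at -0.74 with the length offset and without BTK inhibitor replicate 5. Tested genes in length bins with median lengths of 4153 to 9118 bases had median interactions from 0.73 to 1.61.

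Of 18 further transcription factors of these lineages, 2 rose and 2 fell between the PI3K inhibitor and vehicle, beside 4.84% and 5.82% of all tested genes. Gata1, which eosinophils, basophils, mast cells and erythroid cells all use, rose to 152 ± 52.5 CPM with the PI3K inhibitor, against 47.0 ± 17.8 CPM with vehicle (log2 1.69 ± 0.43), while Gata2 did not pass. Lmo2, a partner of GATA factors, rose too (0.93 ± 0.24). Runx1 (-1.26 ± 0.29) and Mitf (-1.05 ± 0.27), a mast cell factor that stood at 3.21 ± 0.30 CPM with the PI3K inhibitor and 6.66 ± 0.38 CPM with vehicle, fell. Their adjusted p lay between 0.0399 and 0.0407 in the Benjamini-Hochberg-adjusted quasi-likelihood test of edgeR. In the interaction Runx1 (1.57) and Ikzf1 (1.43) were higher, and Lmo4 (-2.87), Gata1 (-1.97) and Cebpe (-1.47) were lower, Cebpe being a factor of granulocyte maturation. Of all tested genes 12% were called higher there and 15.6% lower. The values of these factors, in the same order, were 0.24, 0.24, -1.17, -0.87 and -0.18 with the length offset and without BTK inhibitor replicate 5. With the length offset, with or without BTK inhibitor replicate 5, no gene of the 5 lists was called in the interaction. Erythroid cells express Gata1 and Lmo2 as well, and 8 tested erythroid markers had a median log2 difference of 1.11 with 3 of them higher. The 10 listed erythroid markers summed to 2795 to 5571 CPM with the PI3K inhibitor and 680 to 2890 CPM with vehicle, and the globin genes Hba-a1 and Hbb-bt were at 0 in every library. Their part in the change of Gata1 was not tested. None of these calls between the PI3K inhibitor and vehicle held without any one of PI3K inhibitor replicates 8 and 9, combination replicates 10 to 12 and vehicle replicates 1 to 3, when 0 genes were called in all. With the length offset over all 12 libraries 0 genes were called, and with the offset but without BTK inhibitor replicate 5 there were 2410. In that last fit Csf2rb, Gab2, Inpp5d, Plcg2, Gata1 and Lmo2 were called in the same directions, at -0.97, -0.52, -0.58, -0.93, 1.39 and 0.63 on the log2 scale. Il18r1, Pik3cd, Prkcb, Runx1 and Mitf were not called there, and neither was any of the 9 members. That fit gave other counts for the lists, beside 9.56% of its genes called higher and 9.05% called lower. Of the 11 eosinophil genes Il1rl1, the IL-33 receptor, rose (1.15) and Csf2rb and Csf2rb2 fell. Of the effector genes Alox5, the leukotriene-forming lipoxygenase, fell (-1.11), and of the surface genes Crlf2 and Fcer1g fell. Of the 18 signalling genes 8 fell, Gab2, Inpp5d, Lcp2, Lyn, Plcg1, Plcg2, Prkcd and Syk, and of the transcription factors Gata1, Lmo2 and Tal1 rose and Spi1 fell.

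The tested genes outside the set whose log2 CPM was most alike over the 12 libraries were sought for the mean of the 3 eosinophil granule genes and for the mean of the 5 basophil and mast cell genes other than Gata2. For the eosinophil mean they were Ear1, Ear6, Ear2, Myl6b and Perp, with Pearson r of 0.88, 0.88, 0.88, 0.87 and 0.87. Ear1, Ear2 and Ear6 encode eosinophil-associated ribonucleases, and Ear1 was the highest of them at 381 ± 120 CPM with the PI3K inhibitor and 216 ± 58.9 CPM with vehicle (SD, n = 3). Ear1 shares 57.4% of its stretches of 50 bases with other Ear genes. For the basophil and mast cell mean they were Pkp3, Msl3l2, Bckdha, Fggy and Gstm4, with r of 0.90, 0.90, 0.90, 0.89 and 0.88. These coefficients are descriptions over 12 libraries that share depth and length slope with every gene compared.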

How the data were processed

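RNA was measured by RNA-seq in marrow mononuclear cells. Per the labels' protocols, libraries were made with SMART-Seq v4 and Nextera XT, which do not keep the strand. Per the submitters' processing notes, reads were aligned with STAR to mm10 and counted with featureCounts, with no versions stated. The deposited table holds whole-number read counts per gene, not normalized, for 12 specimens, and each gene's length in bases as the authors gave it, an other kind of value used for CPM per kilobase and for the length comparisons.

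Counts were filtered with filterByExpr (smallest count 10, total 15), scaled with TMM and fitted with edgeR 4.0.16 (limma 3.58.1, R 4.3.3) in one model of 4 group means over all 12 libraries. The quasi-likelihood test was run on 7 comparisons, with Benjamini-Hochberg adjustment over 12742 genes and a threshold of 0.05. DESeq2 1.42.0 and limma voom were alternatives, as were other scalings and filters, fits on only the groups compared, each library left out in turn, Rn45s left out, and an offset per library from a natural spline with 5 degrees of freedom in log2 length. Genes of like length are the 200 tested genes nearest in log2 length, members left out. Likeness used log2 CPM with a prior count of 2. Sequences were read with Python 3.11.15, and 95.7% of the table's symbols matched the RefSeq table. The edgeR test was also run on simulated counts that held no length slope, so that run does not bear on the slope seen here. Between replicates of a group the chi-square per degree of freedom was 21.7 or more, so all 12 were kept as separate samples. Intervals are 95% intervals from the model.

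All 9 members are described, and the other genes named are those of the fixed lists that passed the threshold, those with the smallest p where none passed, the targets of the compounds and the 5 genes most alike. Prkcb was named after its values were seen, to complete a count, as were Il5ra, the mast cell genes too low to test, Hdc, Srgn and Kit, and the list genes called with the length offset without BTK inhibitor replicate 5. The members and lists were chosen with earlier results of these data known. Protein sequences were not used here.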

Additional observations from a re-analysis of the deposited data

Results flagged for a closer look

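The interaction, which tests whether the effect of one inhibitor differs with and without the other, passed for 4 of the 9 genes, and was -2.23 (log2) for Prg2, -2.44 for Prg3, -2.07 for Mcpt8 and -1.73 for Prss34. The 200 genes of like length had median interactions of -1.72, -1.72, -1.72 and -1.36 beside them, and 27.6% of all tested genes passed.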

How the results depend on the processing

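No paired analysis was possible because the replicate numbers 1 to 12 are shared by no groups. The counts of calls moved most. For the BTK inhibitor minus vehicle, DESeq2 called 1085 genes (1 member), limma voom 2979 (2 members), and no filter and the length offset without BTK inhibitor replicate 5 called 1 gene each. For the PI3K inhibitor minus vehicle the counts were 3221 with DESeq2, 4771 with limma voom and 4057 with only the groups compared (3 members each), 0 with the length offset and 2410 with it but without replicate 5. For the combination minus vehicle they were 1 without a filter, 22 with DESeq2 and 1241 with limma voom. For the combination minus the BTK inhibitor they were 1 without a filter, 577 with DESeq2 (2 members), 4978 with limma voom (5 members) and 1 with the offset without replicate 5. For the combination minus the PI3K inhibitor they were 1226 with DESeq2 (3 members), 5337 with limma voom and 4004 with only the groups compared (5 members each). For the interaction limma voom called 6726, the length offset 1 and the offset without replicate 5 539, with 0 members under either offset. With each library left out in turn, the counts of all genes ran between 0 and 3809 for the BTK inhibitor minus vehicle, 0 and 4375 for the PI3K inhibitor minus vehicle, 0 and 3470 for the combination minus the BTK inhibitor, 0 and 2499 for the combination minus the PI3K inhibitor, 0 and 1 for the PI3K inhibitor minus the BTK inhibitor, and 0 and 5692 for the interaction. Members called ran between 0 and 4 in the first 4 of these and between 0 and 5 in the interaction.

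Of 621 log2 differences of members under alternative settings, 542 kept their direction and side of the threshold, 36 newly passed, 8 no longer passed and 35 changed sign. With the length offset the new values were Fcer1a -0.20 for the BTK inhibitor minus vehicle, Prss34 -0.099, Cpa3 -0.56, Fcer1a -0.013 and Gata2 0.0064 for the PI3K inhibitor minus vehicle, Prg3 -0.096 for the combination minus vehicle and Cpa3 0.035 for the combination minus the BTK inhibitor. They were also Cpa3 0.054 and Gata2 -0.13 for the combination minus the PI3K inhibitor, Cpa3 -0.019 for the PI3K inhibitor minus the BTK inhibitor and Cpa3 0.59 and Fcer1a 0.00022 for the interaction. With the offset and without replicate 5 the values were Prg2 -0.021 and Gata2 -0.094 for the BTK inhibitor minus vehicle, Prss34 -0.095, Cpa3 -0.55, Fcer1a -0.00761 and Gata2 0.0038 for the PI3K inhibitor minus vehicle, Prg3 -0.092 for the combination minus vehicle and Epx -0.021 for the combination minus the BTK inhibitor. They were also Cpa3 0.052 and Gata2 -0.13 for the combination minus the PI3K inhibitor, Cpa3 -0.36, Fcer1a -0.16 and Gata2 0.098 for the PI3K inhibitor minus the BTK inhibitor and Cpa3 0.24 for the interaction. With limma voom the values that changed sign were Cpa3 0.079 for the BTK inhibitor minus vehicle, Epx 0.20 and Gata2 0.10 for the PI3K inhibitor minus vehicle, Prg3 -0.063 and Gata2 0.19 for the combination minus vehicle and Gata2 0.17 for the combination minus the BTK inhibitor. They were also Gata2 0.087 for the PI3K inhibitor minus the BTK inhibitor and Gata2 0.070 for the interaction. Without a filter the value was Cpa3 -0.013 for the PI3K inhibitor minus vehicle.

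Leaving out 1 library changed the sign of 41 of 756 log2 differences. The affected ranges were Cpa3 -0.51 to 0.11 and Gata2 -0.17 to 0.49 for the BTK inhibitor minus vehicle, Cpa3 -0.27 to 0.18, Ms4a2 -0.31 to 0.018, Gata2 -0.42 to 0.19 and Epx -0.87 to 0.23 for the PI3K inhibitor minus vehicle, Prg3 -0.37 to 0.33, Prg2 -0.46 to 0.36, Mcpt8 -0.25 to 0.13, Fcer1a -0.38 to 0.14 and Gata2 -0.36 to 0.25 for the combination minus vehicle and Gata2 -0.45 to 0.084 and Cpa3 -0.52 to 0.088 for the combination minus the BTK inhibitor. They were also Ms4a2 -0.22 to 0.043 and Gata2 -0.16 to 0.24 for the combination minus the PI3K inhibitor, Mcpt8 -0.38 to 0.065, Cpa3 -0.091 to 0.52, Gata2 -0.50 to 0.020, Prg2 -0.0090 to 0.66, Prg3 -0.24 to 0.61 and Prss34 -0.46 to 0.076 for the PI3K inhibitor minus the BTK inhibitor and Gata2 -0.43 to 0.24 and Cpa3 -0.54 to 0.082 for the interaction. The causes were not tested. Depth limits Fcer1a most, with 83 counts in its lowest library.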
